A study of Mus musculus with 6 samples.

Results

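Tumour endothelial cells, the cells that line the blood vessels of a tumour, were taken from a single-cell RNA sequencing study of mouse melanoma. They were chosen by their own transcripts. A barcode was taken when it held at least 500 UMIs and 300 genes with at most 20% mitochondrial UMIs, when Cdh5, Pecam1, Kdr, Egfl7 and Plvap together gave at least 4 UMIs, and when at least 2 of these 5 genes were seen. It also had to hold at most 1 UMI of Tyrobp and none of Ptprc, which mark leukocytes, and to give under 0.5% of its UMIs to Spp1, Grem1 and Cdkn2a, which are abundant in the tumour line. The rule found 391 barcodes of the 43843 that passed the filters on UMIs, genes and mitochondrial share. A UMI (unique molecular identifier) stands for 1 captured RNA molecule.

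The tumours grew from Yumm5.2, a mouse melanoma line, of which 350000 cells were placed under the skin of the right flank of C57BL/6 mice. Every tumour line carried a hairpin against Cdkn2a. The control line carried a control hairpin besides (shCdkn2a_shControl), and the other lines carried hairpin 1 or hairpin 2 against Slc39a9, which codes for the zinc transporter ZIP9. Once a tumour could be felt, the mouse was given 200 µg of anti-PD1 or of placebo IgG2a into the abdomen 3 times weekly until its tumour measured 0.5 cm3. The hairpins were in the implanted tumour cells, so the endothelial cells came from hosts that carried none. The labels give neither the age and sex of the mice nor the number of tumours behind a library.

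Each of the 6 libraries stands for a different pairing of line and antibody, and each line was a single infected culture. The control group therefore held 1 line and the knockdown group held 2 lines, and no line and treatment had a second library. Values below are given in a fixed order, with the IgG library before the anti-PD1 library of each line. In the tumour-line barcodes, Slc39a9 stood at 21.9 and 20.3 CPM (a gene's count scaled to 1e6 UMIs of its sum) in the control libraries, at 7.02 and 7.18 CPM with hairpin 1 and at 10.7 and 10.7 CPM with hairpin 2, so both hairpins went with a lower level in the cells that carried them. The 6 libraries held 43929 barcodes and 443954395 UMIs, and 583 passing barcodes (1.33%) were marked as likely doublets. The 43843 passing barcodes carried 13041 distinct barcode strings, and 359 of the 391 chosen barcodes (91.8%) had a string that also passed in another library. Of 1190 passing barcodes that shared a chosen barcode's string in another library, 12 (1.01%) were chosen there, against 0.892% of all passing barcodes. How the libraries came to share strings, and whether reads passed between them, was not tested.

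Endothelial cells form the inner wall of vessels and hold to each other through VE-cadherin (Cdh5) and claudin-5 (Cldn5). In a growing tumour they respond to VEGF made by other cells through the receptors Kdr and Flt1, and tip cells lead new sprouts while Notch signalling through Dll4 keeps their neighbours from doing so. Tumour vessels also decide which leukocytes enter, through adhesion molecules and chemokines on their inner face, and they respond to interferons made by immune cells.

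The chosen barcodes were of 2 kinds, which bears on every value that follows. In 357 barcodes, called marker-rich here, the 5 genes of the rule held a median of 0.665% of UMIs (range 0.144 to 1.44%) and a median of 3670 UMIs was captured. In the other 34, called marker-poor, the same genes held a median of 0.0134% of UMIs, while a median of 40336 UMIs was captured. A barcode that deep can reach 4 UMIs of the 5 genes at a very low share. The line between the kinds was drawn at 0.1% of UMIs after the values were seen. The highest barcode below it stood at 0.0977% and 6 barcodes lay between 0.05% and 0.2%.

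The marker-poor barcodes did not carry the endothelial profile. A list of 24 other endothelial genes, which the rule did not use, held a median of 1.40% of UMIs in marker-rich and 0.0245% in marker-poor barcodes. Spp1, Grem1 and Cdkn2a together held a median of 0.0135% in the former and 0.311% in the latter. The marker-poor barcodes gave 46.1% of all UMIs of the 391, and this share ran from 8.46% in hairpin 1 anti-PD1 to 78.3% in hairpin 1 IgG. The label of endothelial cell was therefore kept for the 357 as a set, though 6 of them clustered with marker-poor barcodes, as given below. Levels below are those of the 357 unless all 391 are named. Their summed counts came to 189570 to 435478 UMIs per library.

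**Figure D1:**
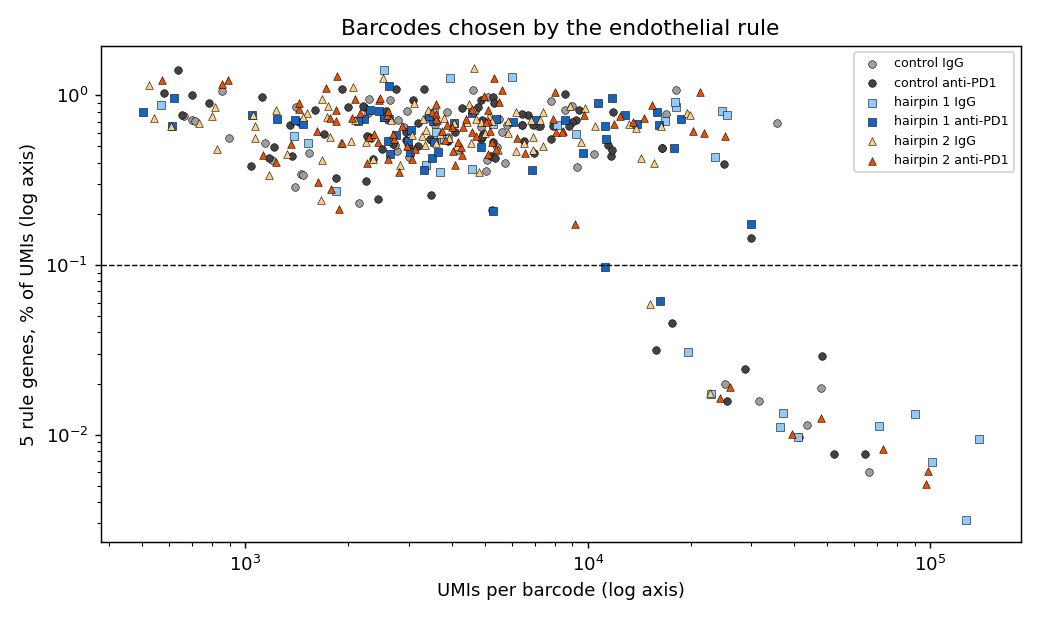
Each point is 1 of the 391 chosen barcodes, with its UMIs on the horizontal log axis and the share of its UMIs from Cdh5, Pecam1, Kdr, Egfl7 and Plvap on the vertical log axis, coloured by library. The dashed line is at 0.1%. The 357 points above it hold a median of 3670 UMIs and the 34 below it a median of 40336 UMIs.

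At the edge of the rule, 21 chosen barcodes had exactly 4 UMIs of the 5 genes and 25 had 5, while 36 barcodes met everything else with 3. Another 19 barcodes had the endothelial genes and were kept out by leukocyte genes, 89 by tumour-line genes and 7 by both, and 19 had 4 or more UMIs from 1 of the 5 genes alone. The chosen set held 12 of the likely doublets, 11 of them marker-rich.

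Endothelial barcodes made up a small share of each tumour suspension. They were 57 of 7729 barcodes (0.737%) in control IgG and 81 of 8858 (0.914%) in control anti-PD1. With hairpin 1 they were 32 of 5081 (0.630%) under IgG and 50 of 6177 (0.809%) under anti-PD1, and with hairpin 2 they were 80 of 7736 (1.03%) and 91 of 8262 (1.10%). The lowest share was in hairpin 1 IgG (exact 95% interval 0.431 to 0.888%) and the highest in hairpin 2 anti-PD1 (0.888 to 1.35%). These intervals cover counting error only.

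The knockdown libraries held 0.894 ± 0.216% endothelial barcodes (SD, n = 4) and the control libraries 0.826 ± 0.125% (SD, n = 2), and the groups overlapped. The difference of 0.0677 percentage points was within the spread (2-sided exact permutation test, p = 0.733; the smallest p this design allows is 0.0667). Anti-PD1 libraries held 0.942 ± 0.148% and IgG libraries 0.8005 ± 0.209% (SD, n = 3 each), also with overlap. That difference of 0.141 points gave an exact permutation p of 0.4, where 0.1 is the smallest possible. Both p-values are 0.733 after Benjamini-Hochberg adjustment over the 2 comparisons. Within each line the anti-PD1 library was the higher, by 0.177 points in the control line, 0.180 in hairpin 1 and 0.0673 in hairpin 2 (higher in 3 of 3 lines, exact sign-flip p = 0.25, the smallest that 3 lines allow). Under either treatment hairpin 1 held the lowest share and hairpin 2 the highest.

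**Figure D2:**
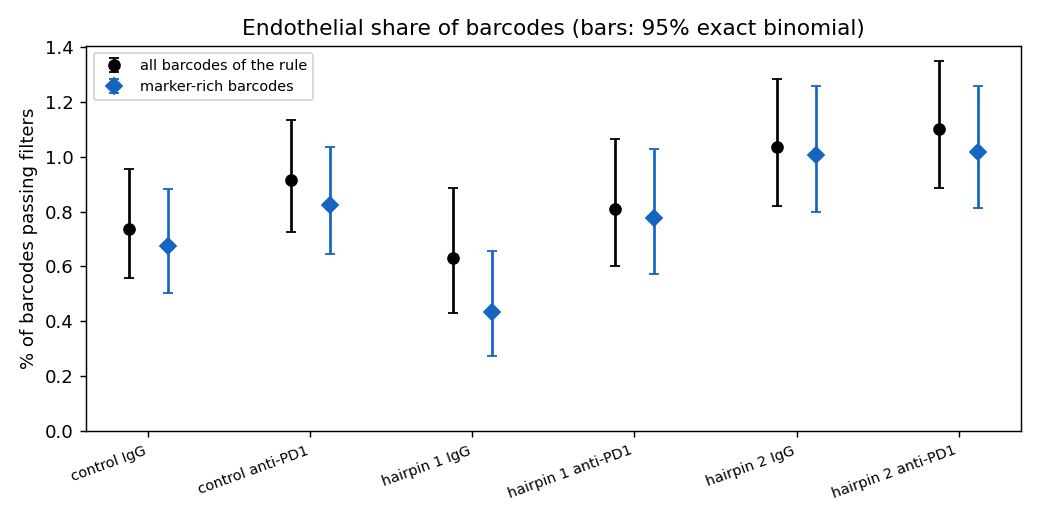
Endothelial share of passing barcodes in the 6 libraries, in percent, for all 391 chosen barcodes (circles) and for the 357 marker-rich ones (diamonds), with exact 95% binomial intervals as bars. The anti-PD1 point lies above the IgG point of the same line for all 3 lines, and the intervals overlap.

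Summed per library, the 357 marker-rich barcodes carried a full endothelial programme in all 6 libraries. All 24 of the other endothelial genes were higher in them than in tumour-line, leukocyte and mural barcodes. Together these genes gave 12467 to 15151 CPM per library, against 744 CPM in tumour-line, 362 in leukocyte and 1283 in mural barcodes and 474 CPM in the marker-poor ones. Since the 5 genes of the rule chose these barcodes, this contrast is a description with no test. Mural cells are the pericytes and smooth muscle cells around the vessel. The 139 barcodes called mural here held at least 4 UMIs of Rgs5, Pdgfrb, Notch3, Cspg4 and Kcnj8, from at least 2 of these genes, and at most 1 UMI of the endothelial rule genes. They were not a clean sample of such cells: they gave 810 CPM of the mural list, against 892 CPM in the pooled marker-rich sums, and 8800 CPM of the fibroblast list and 3870 CPM of the tumour-line list.

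The genes that set these barcodes apart most were those of the endothelial wall itself. Ranked by the median over libraries of the log2 ratio of CPM to all other barcodes, with at least 50 CPM in every library, the first was Cldn5, the tight-junction claudin of endothelium, with a median log2 ratio of 11.61 and 211 to 672 CPM. Robo4, a guidance receptor of endothelium, came second with 11.39 and 279 to 395 CPM. Gpihbp1, which carries lipoprotein lipase across the capillary wall, had 11.30 and 754 to 1660.2 CPM. Mmrn2, a matrix protein of vessels, had 11.17, and Emcn, a sialomucin of capillaries and veins, had 11.14 with 431 to 605 CPM. Further down the leading 30 stood Sox17, Clec14a, Flt4, Esam, Myct1, Adgrl4, Dll4, Aplnr, Tie1 and Mcam. Levels of different genes are not compared with each other here, because capture and length differ between genes.

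Some core identity genes moved little between libraries, and others moved more. Tie1, the orphan receptor of the angiopoietin system, ran from 622 to 785 CPM with a median log2 ratio of 10.05, and Esam, a junction adhesion molecule, from 579 to 815 CPM. Cdh5 ran from 1129 to 1322 CPM and Pecam1 from 1248 to 1506 CPM, both of which the rule used. Erg, a transcription factor that holds endothelial identity, ran from 109.6 to 163 CPM. Cldn5 was less even, at 548 and 596 CPM in the control sums, 211 and 464 CPM in the hairpin 1 sums and 672 and 439 CPM in the hairpin 2 sums. Its lowest value was in hairpin 1 IgG, which is the sum with the fewest barcodes, 22. Clec14a ran from 53.8 to 132 CPM and Sox17 from 63.4 to 121 CPM. Aqp1, also on the list of 24 endothelial genes, was called between the hairpin lines, as given below.

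**Figure D3:**
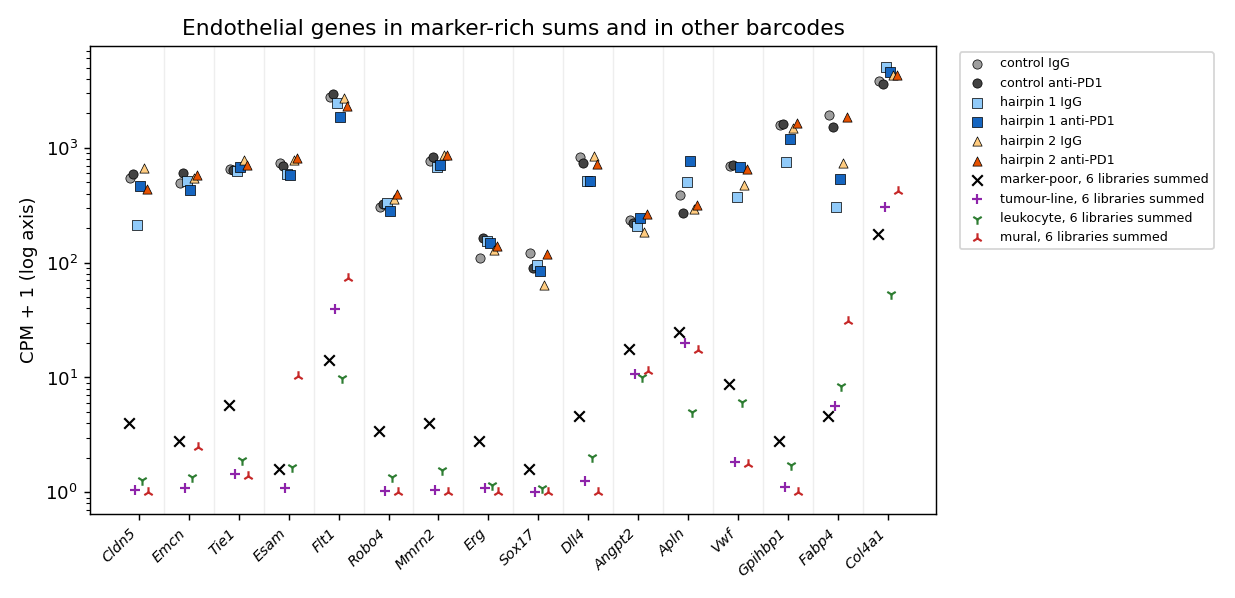
CPM plus 1 (log axis) of 16 endothelial genes in the marker-rich sums of the 6 libraries (circles, squares and triangles) and in marker-poor, tumour-line, leukocyte and mural barcodes summed over libraries (crosses). The 6 library values lie together near the top for each gene, and the 4 other classes lie below them.

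Genes of sprouting vessels were present in every library. Flt1, a VEGF receptor that also acts as a decoy, stood at 1864 to 2945 CPM. Angpt2, the ligand that loosens the vessel wall, stood at 185 to 266 CPM, and Esm1 and Apln, both made by tip cells, at 396 to 679 CPM and 270.2 to 760.5 CPM. Dll4, the Notch ligand of tip and arterial cells, stood at 517 to 841 CPM and the receptor Notch1 at 285 to 397 CPM. Vegfa itself gave 8 UMIs in all, against 89.9 CPM in tumour-line and 77.2 CPM in leukocyte barcodes. Its receptor genes were thus counted in the endothelial sums in every library and the ligand hardly at all.

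Vessel types could be made out within the set. Clustering of the 391 barcodes gave 8 clusters, which are described here with no test because the same genes formed them. One of 84 barcodes was tip-like, with Pgf, Adm, Angpt2 and Apln, and one of 46 was arterial-like, with Gja4, Sema3g, Gja5, Bmx and Stmn2. The arterial-like one was led by the interferon-response gene Rsad2, with Irf7 and Isg15 also among its first 4 genes. A cluster of 65 was cycling-like, with all 12 genes of the cycling list raised, and it also had 5 of 10 mural genes raised. A cluster of 7 was lymphatic-like, with all 7 lymphatic genes raised, among them Prox1, the factor that sets lymphatic fate. Of 40 barcodes in one cluster 34 were marker-poor and 6 marker-rich, and 5 of the 40 were likely doublets. The 6 stayed in the marker-rich sums. This cluster was tumour-line-like, with 8 of 12 tumour-line genes raised and a list sum of 3350 CPM against 267 CPM in the other clusters. Y-linked genes gave 2.40 CPM in marker-poor, 2.67 CPM in tumour-line and 271 CPM in marker-rich barcodes. Clusters of 71, 42 and 36 barcodes were led by Adamtsl1 and Iigp1, by Ildr2 and Igf1, and by Ptn and Tmtc2, and they stay unnamed.

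Genes for drawing in lymphocytes were unevenly represented. The leukocyte adhesion list summed to 2921 to 3650 CPM, against 388 CPM in leukocyte and 530 CPM in mural barcodes, and 9 of its 12 genes were counted in every library. Most of it came from genes that vessels carry for other roles too, among them Mcam at 609.9 to 888 CPM, Podxl at 507 to 786 CPM and Cd34 at 872 to 1261 CPM. High endothelial venules are the vessels through which lymphocytes enter lymph nodes. Their enzymes Chst4 and Fut7 and the addressin Madcam1 were at 0 UMIs in all 6 sums, and Glycam1 gave 2 UMIs. Ackr1, the chemokine carrier of venules, gave 3 UMIs in 1 barcode. Of the adhesion molecules that inflammation induces, Sele gave 18 UMIs, Vcam1 52, Selp 58 and Icam1 133 over all libraries. Icam1 stood at 84.1 and 64.2 CPM in the control sums, 148 and 20.2 CPM in the hairpin 1 sums and 66.1 and 62.0 CPM in the hairpin 2 sums. Both extremes were in hairpin 1, with 28 UMIs under IgG (exact 95% counting interval 98.1 to 213 CPM) and 6 under anti-PD1 (7.41 to 43.9 CPM), and none of the 10 adhesion genes tested was called in any comparison below.

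Genes that present antigen or restrain T cells were unevenly represented. MHC class I was high, with H2-K1 at 811 to 2452 CPM, while MHC class II was near 0, with 21 UMIs of Cd74 and 2 of H2-Aa against 2620 and 717 CPM in leukocyte barcodes. Cd274, which codes for PD-L1, gave 14 UMIs in 8 barcodes, at 0 and 0 CPM in the control sums, 0 and 0 CPM in the hairpin 1 sums and 7.93 and 25.3 CPM in the hairpin 2 sums. It was thus seen only in the hairpin 2 sums, where the counts are too few for a test. Pdcd1lg2, Fasl and Icosl were at 0. Cd276 (B7-H3), a checkpoint molecule often found on tumour vessels, was present in every library at 94.95 to 188 CPM. The 6 checkpoint genes tested gave no call either.

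Signs of other cell types were low in the marker-rich sums. The T and NK list gave 0 to 2.67 CPM, with Cd3e, Cd3d, Cd3g, Trac and Nkg7 at 0, and the neutrophil list 0 to 10.7 CPM. The macrophage list of 12 genes gave 48.2 to 182 CPM, against 20388 CPM in leukocyte barcodes. The tumour-line list gave 256 to 407 CPM, against 15489 CPM in tumour-line barcodes, and the fibroblast list 89.9 to 1158 CPM, against 8800 CPM in mural and 3971 CPM in tumour-line barcodes. The tumour-line list holds Spp1, Grem1 and Cdkn2a, and the macrophage list holds Tyrobp. The rule limited these genes, and they also chose the tumour-line and leukocyte barcodes. The contrasts of these 2 lists were thus partly fixed by the choice of barcodes. Of the mural list, which gave 337 to 1166 CPM, most came from Kcnj8 and Abcc9, the 2 parts of a vascular potassium channel, at 106 to 639.5 CPM and 164 to 465 CPM. In mural barcodes these genes stood lower, at 55.5 and 27.0 CPM.

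Slc39a9 was also counted in the endothelial cells, which carried no hairpin. It gave 37 UMIs in 34 barcodes, at 7.31 and 16.0 CPM in the control sums, 21.1 and 16.8 CPM in the hairpin 1 sums and 21.1 and 27.6 CPM in the hairpin 2 sums. These values did not follow the pattern of the tumour-line barcodes, and they were too few to be tested. Of the other zinc genes, Slc39a10, an importer, ran from 50.5 to 104 CPM, Slc30a1, the exporter at the cell surface, from 47.6 to 93.6 CPM and Slc39a7, which releases zinc from the endoplasmic reticulum, from 169 to 259 CPM. Mt1, a metallothionein that binds zinc, stood at 54.8 and 80.2 CPM in the control sums, 5.28 and 10.1 CPM in the hairpin 1 sums and 29.1 and 36.7 CPM in the hairpin 2 sums, with 76 UMIs in all. Its 4 knockdown values lay below both controls (log2 fold change -2.04 ± 0.43 SE, edgeR adjusted p = 0.015), and the call held in 3 of 6 fits that leave out 1 library, with values of -2.19 to -1.98. Mt1 was the one called gene of the 15 zinc genes tested for knockdown, where 0.634% of all genes were called lower. Tumour-line barcodes held 676 CPM of it, with both controls highest there too. They held 786 and 874 CPM in the controls, 611 and 465 CPM with hairpin 1 and 522 and 636 CPM with hairpin 2. The part of free RNA from them was not tested.

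Gene tests used sums of counts per library and edgeR's quasi-likelihood test with Benjamini-Hochberg adjustment over all genes tested, at 0.05. With all 391 barcodes, 0 of 8540 genes were called in each of the 3 comparisons, which is 0%. At an unadjusted p under 0.05 this fit held 142 genes for knockdown. The values below come from the 357 marker-rich barcodes with the tumour line as a term in the fit, chosen after the 2 kinds of barcode were seen. The 2 libraries of a line are its IgG and anti-PD1 libraries, and the fit takes out an antibody effect shared by the lines. Such p-values therefore measure how far the antibody difference varies between lines, and not the spread of repeated libraries. They do not measure how far a further line or mouse would differ. A sum per library cannot tell fewer expressing cells from less RNA in each.

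For knockdown against control, 82 of 6627 genes were called (1.24%), of which 40 (0.604%) stood higher and 42 (0.634%) lower. Counts over all genes did not leave out the genes of the rule. Grem1, which the rule limited, is among the 42, and its call is not read as a result. Among the higher genes were 9 of 12 cycling genes, and among the lower ones were Fabp4, Cd36 and Car4 of mature capillaries. Of the 24 genes of endothelial identity 0 were called, with a median log2 fold change of -0.07 against -0.01 over all genes. The same was so of 13 tip-cell genes, 6 arterial genes, 11 Notch genes and 6 VEGF genes, with 0 calls each. Markers of fibroblasts had negative values in this comparison. All 4 fibroblast genes tested were negative (median -1.33), each with an unadjusted p under 0.05 and none called, and the list summed to 146 and 1158 CPM in the control sums, 364 and 659.5 CPM with hairpin 1 and 89.9 and 229.6 CPM with hairpin 2. Their part in the calls was not tested.

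Of the 12 cycling genes, 9 were called higher with knockdown, where 0.604% of all genes were, and the list's median log2 fold change was 2.27. Mki67 (chr7:135689784-135716361, mm10), which marks dividing cells, stood at 25.6 and 48.1 CPM in the control sums, 491 and 222 CPM in the hairpin 1 sums and 159 and 126 CPM in the hairpin 2 sums. Both controls lay below all 4 knockdown values (log2 fold change 2.46 ± 0.32 SE, edgeR adjusted p = 0.000237). Top2a, which untangles replicated DNA, stood at 62.1 and 40.1 CPM in the control sums, 797 and 316 CPM in the hairpin 1 sums and 148 and 103 CPM in the hairpin 2 sums, again without overlap (log2 fold change 2.32 ± 0.28 SE, edgeR adjusted p = 0.000101). Hmgb2, a chromatin protein of dividing cells, stood at 109.6 and 160.5 CPM in the control sums, 992 and 424 CPM in the hairpin 1 sums and 307 and 259 CPM in the hairpin 2 sums (log2 fold change 1.62 ± 0.26 SE, edgeR adjusted p = 0.00121). For each of these genes hairpin 1 IgG held the highest value and the hairpin 2 values lay nearer to the controls. Prc1 and Cenpf, which act in spindle and kinetochore, had log2 fold changes of 2.65 and 3.48. Birc5 did not pass (log2 fold change 1.48 ± 0.41 SE, edgeR adjusted p = 0.0938), nor did Nusap1 and Ccnb1.

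These values rested on few barcodes. The 12 genes gave 100 and 138 UMIs in the control sums, 786 and 507 with hairpin 1 and 417 and 372 with hairpin 2, and 1 barcode gave 61% of them in control IgG. Without the control IgG library 0 of the 9 genes kept the call, with a median over the 9 of 2.13. Without control anti-PD1 4 kept it (median 2.66), and without hairpin 1 IgG 5 did (2.19). The call of Mki67 held in 5 of 6 fits that leave out 1 library, with values of 1.79 to 3.40. Without the line as a term, none of 6627 genes was called.

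The share of barcodes with cycling genes was also compared at even depth. Each marker-rich barcode was thinned to 1500 UMIs, which kept 303 and left out 54 that were shallower. At least 3 UMIs of the 12 cycling genes were then found in 0 of 41 barcodes in control IgG (exact 95% upper limit 8.60%) and 3 of 61 (4.92%) in control anti-PD1. With hairpin 1 they were found in 7 of 20 (35%) and 8 of 41 (19.5%), and with hairpin 2 in 7 of 64 (10.9%) and 9 of 76 (11.8%). Unthinned, the shares were 9.62% and 15.1% in the controls, 40.9% and 25% with hairpin 1 and 25.6% and 22.6% with hairpin 2. All 4 knockdown libraries lay above both controls on either scale. The exact 95% intervals after thinning overlapped between control anti-PD1 (1.03 to 13.7%) and hairpin 2 (4.51 to 21.2% and 5.56 to 21.3%). The cycling-like cluster held 15.4 and 13.7% of marker-rich barcodes in the controls, 36.4 and 22.9% with hairpin 1 and 16.7 and 17.9% with hairpin 2. Hairpin 2 thus lay near the controls there, and cycling genes helped to form that cluster.

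Cycling genes differed by line in other cells too. In leukocyte barcodes the same list gave 749 and 935 CPM in the controls, 1755 and 1520 with hairpin 1 and 1094 and 1155 with hairpin 2. In tumour-line barcodes it gave 541 and 517, 508 and 828, and 834 and 684 CPM. In the marker-rich endothelial sums it gave 365 and 369, 4146 and 1706, and 1102 and 854 CPM. The part that RNA from other dividing cells had in the endothelial values was not tested.

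Some genes of capillaries were lower with knockdown. Of 7 capillary genes tested 3 were called lower and 1 higher, where 0.634% and 0.604% of all genes were, and the list's median log2 fold change was -0.86. Fabp4 (chr3:10204088-10208576, mm10), a fatty-acid carrier of capillary endothelium, stood at 1915 and 1530.0 CPM in the control sums, 306 and 538 CPM in the hairpin 1 sums and 740.2 and 1837 CPM in the hairpin 2 sums. Both hairpin 1 values and hairpin 2 IgG were low, and hairpin 2 anti-PD1 lay between the controls (log2 fold change -1.34 ± 0.22 SE, edgeR adjusted p = 0.00121). One barcode there held 247 UMIs of it. Cd36 (chr5:17781690-17888801), the fatty-acid receptor, stood at 252 and 222 CPM in the control sums, 121 and 47.1 CPM in the hairpin 1 sums and 76.7 and 85.0 CPM in the hairpin 2 sums, with both controls above all 4 others (log2 fold change -1.57 ± 0.25 SE, edgeR adjusted p = 0.00121). The marker-rich barcodes also fell into different clusters by line. The cluster of 71 led by Adamtsl1, in which Cd36, Car4, Kcnj8 and Abcc9 were raised, held 34.6 and 34.2% of them in the controls, 4.55 and 4.17% with hairpin 1 and 10.3 and 20.2% with hairpin 2. These genes helped to form the cluster, so its shares are no separate result.

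Car4, a carbonic anhydrase on the inner face of capillaries, was the rarest of these. It stood at 91.4 and 42.8 CPM in the control sums, 0 and 0 CPM in the hairpin 1 sums and 10.6 and 11.5 CPM in the hairpin 2 sums, from 50 UMIs in 20 barcodes. Both hairpin 1 sums were at 0, so the pooled control level of 63.3 CPM was at least 10.3-fold higher than the limit of 3 counts over the hairpin 1 group. Rgcc, a regulator of the cell cycle found in capillaries, went the other way, at 121 and 158 CPM in the control sums, 379.8 and 309.6 CPM in the hairpin 1 sums and 148 and 296 CPM in the hairpin 2 sums (log2 fold change 0.97 ± 0.24 SE, edgeR adjusted p = 0.0493), with overlap between hairpin 2 IgG and a control. Leaving out control IgG ended all 4 calls (median of the 4 genes -1.15), and 1 was kept without control anti-PD1 (-1.78), 2 without hairpin 1 IgG (-1.59) and 3 without hairpin 2 anti-PD1 (-1.70). The call of Fabp4 held in 4 of 6 fits that leave out 1 library, with values of -2.09 to -0.60.

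Further called genes were lower with knockdown. Lrg1, a secreted factor that alters TGF-beta signalling in vessels and marks venous cells, stood at 1100.0 and 786 CPM in the control sums, 517 and 289 CPM in the hairpin 1 sums and 465 and 565 CPM in the hairpin 2 sums, with no overlap (log2 fold change -1.05 ± 0.18 SE, edgeR adjusted p = 0.00253). Tnfrsf9 (4-1BB), a receptor better known on activated T cells, stood at 175 and 131 CPM in the control sums, 5.28 and 26.9 CPM in the hairpin 1 sums and 55.5 and 48.2 CPM in the hairpin 2 sums, with both controls on top (log2 fold change -2.29 ± 0.33 SE, edgeR adjusted p = 0.000568). Sema3a, a repulsive guidance ligand, stood at 143 and 99.0 CPM in the control sums, 26.4 and 37.0 CPM in the hairpin 1 sums and 34.4 and 48.2 CPM in the hairpin 2 sums, again without overlap (log2 fold change -1.69 ± 0.32 SE, edgeR adjusted p = 0.00537), though tumour-line barcodes held 246 CPM of it. In the fits that leave out 1 library the call of Lrg1 held in 4 of 6 (-1.32 to -0.84), that of Tnfrsf9 in 5 of 6 (-3.24 to -1.94) and that of Sema3a in 3 of 6 (-2.28 to -1.21). Each of the 3 was lost without control IgG.

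Klf4, a factor switched on by blood flow, stood at 742 and 468 CPM in the control sums, 164 and 363 CPM in the hairpin 1 sums and 256 and 466 CPM in the hairpin 2 sums and passed narrowly (log2 fold change -1.003 ± 0.24 SE, edgeR adjusted p = 0.0357). Hairpin 2 anti-PD1 lay at the level of control anti-PD1, and the call held in 4 of 6 fits that leave out 1 library, with values of -1.88 to -0.19. Il4ra, a cytokine receptor chain, stood at 146 and 112 CPM in the control sums, 36.9 and 20.2 CPM in the hairpin 1 sums and 68.7 and 62.0 CPM in the hairpin 2 sums (log2 fold change -1.60 ± 0.30 SE, edgeR adjusted p = 0.00469). Leukocyte barcodes held 356 and 387 CPM of Il4ra in the controls, 206 and 203 CPM with hairpin 1 and 275 and 337 CPM with hairpin 2. Kcnj8, the pore of the potassium channel named above, stood at 639.5 and 476 CPM in the control sums, 106 and 151 CPM in the hairpin 1 sums and 494 and 390.4 CPM in the hairpin 2 sums (log2 fold change -1.20 ± 0.19 SE, edgeR adjusted p = 0.00121). Hairpin 2 IgG lay between the controls, and the hairpin 1 values were the lowest. Over the fits that leave out 1 library the call of Il4ra held in 3 of 6 (-1.75 to -1.46) and that of Kcnj8 in 3 of 6 (-1.46 to -1.01), and both were lost without either control library or hairpin 1 IgG. S100a4 was called lower (log2 fold change -1.18 ± 0.29 SE, edgeR adjusted p = 0.044), but with doublets left out its log2 fold change was 0.0698, and tumour-line barcodes held 2112 CPM.

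The matrix genes of the vessel mostly had positive values. Of 14 basement membrane genes 13 had a positive log2 fold change and 1 was called (where 0.604% of all genes were called higher). This was Col15a1, a collagen of the vessel's outer sheet, at 534 and 522 CPM in the control sums, 1630 and 767 CPM in the hairpin 1 sums and 925 and 785 CPM in the hairpin 2 sums (log2 fold change 0.88 ± 0.19 SE, edgeR adjusted p = 0.016). The list's median was 0.26. Fn1, the adhesive matrix protein fibronectin, was called (log2 fold change 0.96 ± 0.21 SE, edgeR adjusted p = 0.015), yet it stood at 168 and 163 CPM in the control sums, 897 and 582 CPM in the hairpin 1 sums and 172 and 129 CPM in the hairpin 2 sums. Mural barcodes held 1186 CPM and tumour-line barcodes 1037 CPM of it. Its 2 high values were both of hairpin 1, and the hairpin 2 values lay at the level of the controls. Leaving out control IgG, control anti-PD1 or hairpin 1 IgG ended both calls, with values between 0.73 and 1.19 for Fn1 over the fits.

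**Figure D4:**
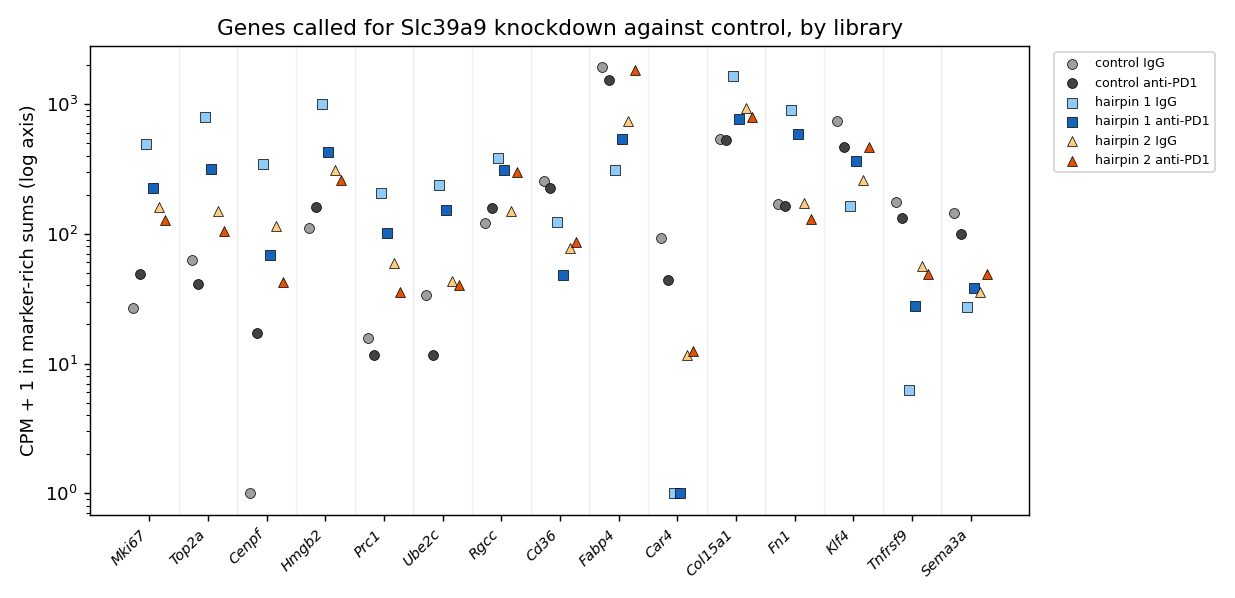
CPM plus 1 (log axis) in the marker-rich sum of each of the 6 libraries for 15 genes called for knockdown against control. Mki67 and Top2a lie below all knockdown values in both controls, Cd36 lies above them, and for Fn1 only the 2 hairpin 1 values are raised.

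The 2 knockdown lines also differed from each other. Between hairpin 2 and hairpin 1, 122 of 6627 genes were called (1.84%), of which 67 (1.01%) stood higher in hairpin 2 and 55 (0.83%) lower. Among the higher genes were 6 of 14 type I interferon genes and 4 of 15 MHC class I genes, and among the lower ones were 8 of 12 cycling genes, Cxcl12 and Edn1. Each line was 1 culture, so an effect of the hairpin cannot be told apart from other differences between the lines or their tumours.

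Interferon-response genes are switched on through short promoter elements that STAT and IRF factors bind. To show these, 250 bases before the start of 4 such genes are given, from RefSeq on GRCm38.p6 and written 5′ to 3′ on the strand of the gene. Capitals mark matches of GAAANNGAAA on either strand, the core of the interferon-stimulated response element, and matches that overlap run together. The windows lie at chr12:26456453-26456702 (minus strand) for Rsad2, chr4:156200819-156201068 (minus strand) for Isg15, chr19:34583279-34583528 (plus strand) for Ifit3 and chr3:142620413-142620662 (plus strand) for Gbp2.
Rsad2: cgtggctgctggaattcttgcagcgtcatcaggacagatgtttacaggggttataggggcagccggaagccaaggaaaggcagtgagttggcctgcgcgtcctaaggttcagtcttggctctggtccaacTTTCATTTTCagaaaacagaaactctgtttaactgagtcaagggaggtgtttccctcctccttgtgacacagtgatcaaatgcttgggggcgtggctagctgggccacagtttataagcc
Isg15: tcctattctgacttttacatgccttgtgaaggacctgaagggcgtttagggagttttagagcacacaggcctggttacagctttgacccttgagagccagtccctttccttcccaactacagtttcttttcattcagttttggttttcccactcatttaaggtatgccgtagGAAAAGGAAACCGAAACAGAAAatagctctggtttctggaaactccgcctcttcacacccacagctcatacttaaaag
Ifit3: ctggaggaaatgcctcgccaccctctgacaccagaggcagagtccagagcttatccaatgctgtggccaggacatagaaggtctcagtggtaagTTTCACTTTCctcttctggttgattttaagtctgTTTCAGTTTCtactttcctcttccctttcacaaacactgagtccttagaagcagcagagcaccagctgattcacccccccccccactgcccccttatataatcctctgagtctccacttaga
Gbp2: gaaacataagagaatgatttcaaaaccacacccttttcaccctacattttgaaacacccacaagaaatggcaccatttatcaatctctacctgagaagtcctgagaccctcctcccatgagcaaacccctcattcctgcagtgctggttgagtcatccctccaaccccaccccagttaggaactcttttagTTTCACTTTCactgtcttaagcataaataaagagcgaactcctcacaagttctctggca

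Isg15 holds 3 overlapping matches, Ifit3 holds 2 and Rsad2 and Gbp2 hold 1 each. The motif is in 978 of 32851 RefSeq promoter windows of this length (2.98%), which is 936 of 27025 genes (3.46%). It is in 8 of the 16 genes of the type I interferon list that could be matched, of 22 listed (50%), and in 8 of 14 matched genes of the interferon gamma list (57.1%). A match is a description of these letters and not a shown binding site.

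Of 14 type I interferon genes tested, 6 were called higher in hairpin 2 than in hairpin 1, where 1.01% of all genes were, and all 14 had a positive log2 fold change. The list's median was 1.69, and it is 1.69 too with Rsad2 set to its lower bound. Of the 6 called genes, 5 hold the motif (Bst2, Ifit3, Isg15, Rsad2 and Stat2) and Irf7 does not. Of the 6 called genes of the interferon gamma list 3 could be matched, and of these Gbp2 holds it and Cxcl9 and Psmb8 do not.

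Rsad2 codes for viperin, an antiviral enzyme. It stood at 51.2 and 85.6 CPM in the control sums, 0 and 0 CPM in the hairpin 1 sums and 55.5 and 383 CPM in the hairpin 2 sums. It was at 0 in both hairpin 1 sums and its highest value was in hairpin 2 anti-PD1. The pooled hairpin 2 level of 231 CPM was at least 37.5-fold higher than the limit of 3 counts over the hairpin 1 group (edgeR adjusted p = 5.83e-06). One barcode held 97 of the 234 UMIs. The call held in 6 of 6 fits that leave out 1 library.

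Isg15, a ubiquitin-like protein attached to other proteins after interferon, stood at 139 and 93.6 CPM in the control sums, 42.2 and 40.4 CPM in the hairpin 1 sums and 100.5 and 301 CPM in the hairpin 2 sums, with the hairpin 1 values lowest (log2 fold change 2.30 ± 0.44 SE, edgeR adjusted p = 0.00427). Ifit3, an antiviral protein, stood at 25.6 and 32.1 CPM in the control sums, 0 and 3.37 CPM in the hairpin 1 sums and 21.1 and 156 CPM in the hairpin 2 sums (log2 fold change 5.32 ± 0.86 SE, edgeR adjusted p = 0.000848), and Irf7, the factor that amplifies the response, at 29.2 and 37.4 CPM in the control sums, 0 and 10.1 CPM in the hairpin 1 sums and 50.2 and 106 CPM in the hairpin 2 sums (log2 fold change 3.71 ± 0.65 SE, edgeR adjusted p = 0.0017). In each of the 3 genes the controls lay between the hairpin lines or near hairpin 2 IgG, and hairpin 2 anti-PD1 stood alone at the top. Ifit3 could not be fitted without hairpin 2 anti-PD1. Over the fits that leave out 1 library the call of Isg15 held in 3 of 6 (1.04 to 3.10), that of Ifit3 in 3 of 5 (5.24 to 6.49) and that of Irf7 in 4 of 6 (3.30 to 7.20).

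The interferon gamma list gave 6 calls of 12, all higher in hairpin 2, where 1.01% of all genes were called higher. The list's median log2 fold change was 1.38. Gbp2, a GTPase that attacks the vacuoles of pathogens, stood at 65.8 and 58.8 CPM in the control sums, 15.8 and 13.5 CPM in the hairpin 1 sums and 58.2 and 255 CPM in the hairpin 2 sums (log2 fold change 3.44 ± 0.56 SE, edgeR adjusted p = 0.000953). Cxcl9, the chemokine that draws in T cells through CXCR3, stood at 0 and 32.1 CPM in the control sums, 5.28 and 0 CPM in the hairpin 1 sums and 26.4 and 411 CPM in the hairpin 2 sums (log2 fold change 6.73 ± 0.74 SE, edgeR adjusted p = 6.29e-06). Its 202 UMIs came from 12 barcodes, and 1 of them held 116. Hairpin 2 anti-PD1 held 179 of the 202 UMIs, and Cxcl9 could not be fitted without that library. Iigp1, an interferon-inducible GTPase, also had its top value in hairpin 2 anti-PD1, at 205 and 126 CPM (control), 89.7 and 47.1 CPM (hairpin 1) and 124 and 971 CPM (hairpin 2) (log2 fold change 2.95 ± 0.58 SE, edgeR adjusted p = 0.00545). One barcode held 185 of its 604 UMIs. Over the fits that leave out 1 library the call of Gbp2 held in 3 of 6 (1.88 to 4.24) and that of Iigp1 in 3 of 6 (0.54 to 4.33), both lost without hairpin 1 IgG, hairpin 1 anti-PD1 or hairpin 2 anti-PD1, and lowest without the last. The call of Cxcl9 held in 4 of 5 and was lost without hairpin 1 anti-PD1, at 2.18.

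MHC class I followed, with 4 of 15 genes called higher in hairpin 2 (1.01% of all genes were) and 14 of 15 positive (median 0.91). Psmb8 is counted both here and in the gamma list. H2-K1, a class I heavy chain, stood at 1495 and 1372 CPM in the control sums, 1150.0 and 811 CPM in the hairpin 1 sums and 1649.7 and 2452 CPM in the hairpin 2 sums, with both hairpin 1 values lowest (log2 fold change 1.09 ± 0.21 SE, edgeR adjusted p = 0.00427). Psmb8, a subunit of the immunoproteasome that cuts peptides for class I, stood at 296 and 171 CPM in the control sums, 174 and 175 CPM in the hairpin 1 sums and 328 and 432 CPM in the hairpin 2 sums (log2 fold change 1.14 ± 0.26 SE, edgeR adjusted p = 0.021). Control IgG lay near hairpin 2 for Psmb8 and the other control lay at the level of hairpin 1.

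These counts changed when 1 library was left out. A fit without 1 library has less with which to measure the spread, so a call can be lost without a smaller log2 fold change. Without hairpin 1 IgG 1 of the 6 type I calls, 1 of the 6 gamma calls and 0 of the 4 class I calls were kept. Without hairpin 2 anti-PD1, where 5 of the 6 genes of either interferon list could be fitted, the kept calls were 1, 0 and 0, and without hairpin 1 anti-PD1 they were 2, 0 and 0. The medians over the called genes stayed positive in these fits, from 1.13 to 4.16 for the type I genes, 1.23 to 3.10 for the gamma genes and 0.74 to 1.26 for class I. Each list's median was lowest without hairpin 2 anti-PD1.

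Other cells of the same tumours were ordered differently from list to list. In leukocytes the type I list summed to 1119 and 1209 CPM in the controls, 729.8 and 737 CPM with hairpin 1 and 1416 and 1499 CPM with hairpin 2. In tumour-line barcodes it summed to 271 and 306, 354 and 393, and 379.5 and 697 CPM. In the endothelial sums it was 1316 and 1214, 591 and 713, and 1189.7 and 2758 CPM. For this list leukocyte and endothelial sums were thus lowest in both hairpin 1 libraries, and in tumour-line barcodes the controls were lowest. For the other 2 lists leukocytes were lowest in the controls. Their gamma list summed to 983 and 1042 CPM in the controls, 1339.6 and 1194 CPM with hairpin 1 and 1446 and 1594 CPM with hairpin 2. Their class I list summed to 4246 and 4409.8 CPM, 5423 and 5132 CPM, and 5116 and 6036 CPM. The macrophage list in the endothelial sums gave 69.4 and 53.5 CPM in the controls, 58.0 and 162 CPM with hairpin 1 and 182 and 48.2 CPM with hairpin 2. How much leukocyte RNA in endothelial droplets adds to the endothelial sums was not tested.

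Single genes for ligands differed between the hairpin lines in both directions. Of 5 chemokine and cytokine genes tested 2 were called lower in hairpin 2, Cxcl12 and Cxcl1, and 1 higher, Cxcl9. The 12 genes of clotting and vascular tone were split, with 6 positive and 6 negative (median 0.05), 1 called higher and 2 lower. Over all genes 0.83% were called lower and 1.01% higher. Cxcl12 (chr6:117168535-117181367, mm10), the chemokine that holds CXCR4-bearing cells near vessels, stood at 32.9 and 21.4 CPM in the control sums, 269 and 239 CPM in the hairpin 1 sums and 5.29 and 2.30 CPM in the hairpin 2 sums. The controls lay above hairpin 2 and well below hairpin 1 (log2 fold change -5.95 ± 0.47 SE, edgeR adjusted p = 4.21e-08), and the call held in 6 of 6 fits that leave out 1 library, with values of -6.37 to -5.62. Edn1, the vasoconstrictor endothelin-1, stood at 21.9 and 29.4 CPM in the control sums, 73.9 and 202 CPM in the hairpin 1 sums and 0 and 11.5 CPM in the hairpin 2 sums (log2 fold change -4.44 ± 0.55 SE, edgeR adjusted p = 2.68e-05), and 1 barcode in hairpin 1 anti-PD1 held 47 of its 96 UMIs. Ednrb, which codes for a receptor of endothelin, was higher in hairpin 2 (log2 fold change 0.96 ± 0.18 SE, edgeR adjusted p = 0.00464), and its call was lost without hairpin 1 IgG. Fn1, whose values are given above, was lower in hairpin 2 (log2 fold change -2.27 ± 0.22 SE, edgeR adjusted p = 8.44e-07), and the call held in 6 of 6 fits that leave out 1 library, with values of -2.46 to -2.05. In mural barcodes it stood higher and in the same order of lines, at 1454 and 2001 CPM with hairpin 1 and 630.0 and 544 CPM with hairpin 2.

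The tip-cell and arterial lists held 1 call each, both lower in hairpin 2, while most of their genes were positive. Of 13 tip-cell genes 10 were positive (median 0.18), and of 6 arterial genes 5 were (median 0.40), where 0.83% of all genes were called lower. Apln, the tip-cell peptide, stood at 391 and 270.2 CPM in the control sums, 501 and 760.5 CPM in the hairpin 1 sums and 291 and 317 CPM in the hairpin 2 sums (log2 fold change -1.05 ± 0.23 SE, edgeR adjusted p = 0.0124). Gja4, the arterial gap-junction protein connexin 37, stood at 91.4 and 80.2 CPM in the control sums, 216 and 175 CPM in the hairpin 1 sums and 68.7 and 48.2 CPM in the hairpin 2 sums (log2 fold change -1.73 ± 0.30 SE, edgeR adjusted p = 0.00158). For Apln and Gja4 the 4 values of the control and hairpin 2 sums all lay below hairpin 1. Both calls were lost without hairpin 1 IgG, and over all fits that leave out 1 library they held in 3 of 6 (-1.38 to -0.60) and 5 of 6 (-1.82 to -1.62).

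Cycling genes were lower in hairpin 2 than in hairpin 1, with 8 of 12 called (0.83% of all genes were called lower) and a median log2 fold change of -1.65. Top2a, given above, had a log2 fold change of -2.04 and Mki67 one of -1.24. Without hairpin 1 IgG none of the 8 kept the call, at a median of -1.39, and without hairpin 2 IgG 2 did (-1.45).

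Of 7 capillary genes 2 were called higher in hairpin 2, Fabp4 and Gpihbp1, where 1.01% of all genes were. Fabp4 differed by 1.58 on the log2 scale, and Gpihbp1, the lipase carrier, stood at 1582 and 1597 CPM in the control sums, 754 and 1201 CPM in the hairpin 1 sums and 1502 and 1660.2 CPM in the hairpin 2 sums (log2 fold change 0.72 ± 0.18 SE, edgeR adjusted p = 0.0364). Aqp1, a water channel on the list of 24 endothelial genes, stood at 1831 and 1781 CPM in the control sums, 538 and 1332.5 CPM in the hairpin 1 sums and 2345 and 2244 CPM in the hairpin 2 sums (log2 fold change 1.35 ± 0.23 SE, edgeR adjusted p = 0.00133). For Aqp1 and Gpihbp1 hairpin 1 IgG was lowest, and leaving it out ended both calls. The call of Aqp1 held in 5 of 6 fits that leave out 1 library, with values of 0.79 to 2.13, and that of Gpihbp1 in 1 of 6 fits that leave out 1 library, with values of 0.47 to 1.04.

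Fibroblast genes also stood lower in hairpin 2. Col1a2 and Col3a1 had log2 fold changes of -1.54 and -1.72 in the endothelial sums. Postn, a gene of the tumour-line list, had one of -2.64. In tumour-line barcodes Postn stood at 18.6 and 14.2 CPM in the controls, 221 and 282 CPM with hairpin 1 and 25.3 and 23.2 CPM with hairpin 2. In mural barcodes Col1a2 stood at 4891 CPM, and in tumour-line barcodes the fibroblast list gave 6674 and 7099 CPM with hairpin 1 against 3421 and 3783 CPM with hairpin 2. The part of those cells in the endothelial values was not tested. With doublets left out Col3a1 and Postn lost the call.

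**Figure D5:**
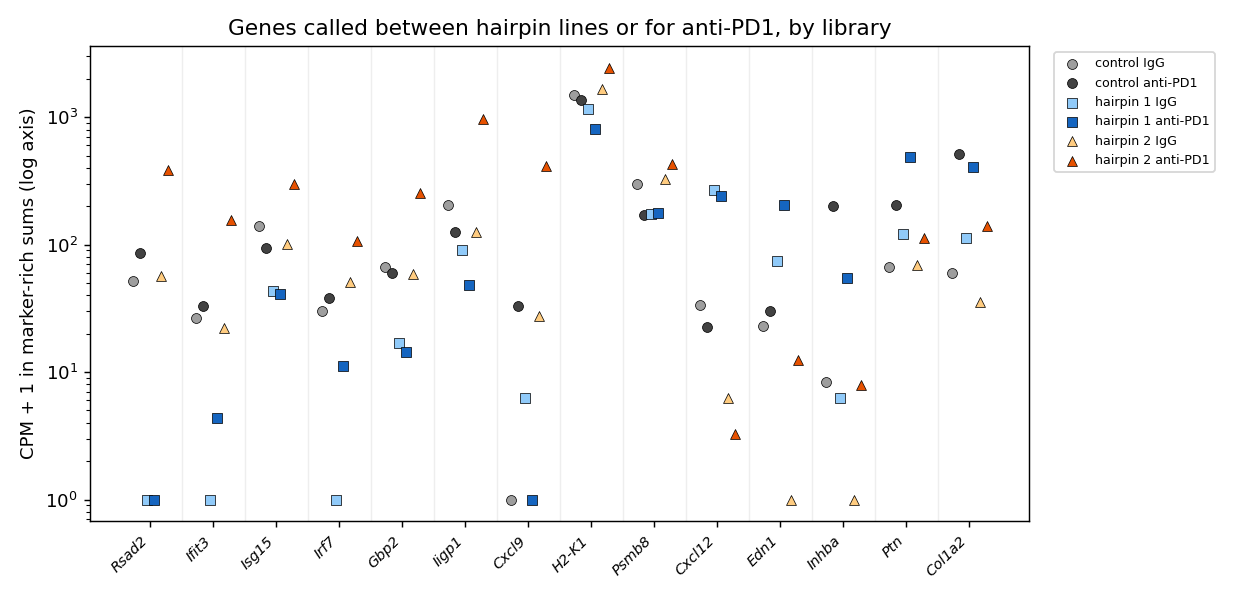
CPM plus 1 (log axis) in the marker-rich sum of each library for 14 genes called between the hairpin lines or for anti-PD1. Rsad2 is at 0 CPM in both hairpin 1 sums and Cxcl12 is highest there, and hairpin 2 anti-PD1 holds the top value of the interferon-response genes shown.

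Anti-PD1 against IgG gave few calls: 7 of 6627 genes (0.106%), all higher with anti-PD1 and 0 lower (0%), where 287 genes had an unadjusted p under 0.05 and DESeq2 called 1. Without the line as a term the same sums gave 0 calls, with 170 genes at an unadjusted p under 0.05. None of 24 endothelial, 13 tip-cell, 14 junction or 10 leukocyte adhesion genes was called. Of the type I interferon genes 13 of 14 had a positive log2 fold change, with a median of 0.53, and 1 was called, Rsad2. All 12 cycling genes were negative at a median of -0.79, with none called. All 4 fibroblast genes tested were positive (median 1.38), 3 with an unadjusted p under 0.05 and 1 called, and their part in the other calls was not tested.

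The 7 genes were Inhba, Cxcl9, Col1a2, Ctgf, Rsad2, Thbs1 and Ptn. Ptn (chr6:36714929-36810220, mm10), the growth factor pleiotrophin, stood at 65.8 and 203 CPM in the control sums, 121 and 485 CPM in the hairpin 1 sums and 68.7 and 113 CPM in the hairpin 2 sums. The anti-PD1 library was the higher in each line (log2 fold change 1.48 ± 0.24 SE, edgeR adjusted p = 0.00382), and other barcodes held almost none, with 1.96 CPM in tumour-line and 7.499 CPM in mural barcodes. Ctgf, a matrix protein induced by stretch, stood at 10.96 and 48.1 CPM in the control sums, 52.8 and 259 CPM in the hairpin 1 sums and 13.2 and 45.9 CPM in the hairpin 2 sums, higher with anti-PD1 in all 3 lines (log2 fold change 2.11 ± 0.35 SE, edgeR adjusted p = 0.00447). One barcode in hairpin 1 anti-PD1 held 69 of its 133 UMIs. Thbs1, an inhibitor of vessel growth, stood at 36.5 and 96.3 CPM in the control sums, 36.9 and 165 CPM in the hairpin 1 sums and 31.7 and 75.8 CPM in the hairpin 2 sums (log2 fold change 1.57 ± 0.31 SE, edgeR adjusted p = 0.0354). Other barcodes held more of it, with 1297 CPM in tumour-line, 607 CPM in leukocyte and 485 CPM in mural barcodes. Over the fits that leave out 1 library the call of Ptn held in 2 of 6 (1.17 to 1.82), that of Ctgf in 3 of 6 (1.92 to 2.23) and that of Thbs1 in 2 of 6 (1.32 to 1.75), and none of the 3 held without control anti-PD1, hairpin 1 IgG or hairpin 1 anti-PD1.

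The other 4 were Inhba, Col1a2, Rsad2 and Cxcl9, and the part of RNA from other cells in them was not tested. Inhba, a subunit of activins, stood at 7.31 and 201 CPM in the control sums, 5.28 and 53.8 CPM in the hairpin 1 sums and 0 and 6.89 CPM in the hairpin 2 sums, from 97 UMIs in 14 barcodes, while tumour-line barcodes held 430.0 CPM (log2 fold change 4.31 ± 0.57 SE, edgeR adjusted p = 0.000207). Control anti-PD1 held 75 of the 97 UMIs. In the fits that leave out 1 library the log2 fold change of Inhba was 3.43 to 4.68, and some of them lost the call. Col1a2, a fibroblast collagen, stood at 58.5 and 511 CPM in the control sums, 111 and 404 CPM in the hairpin 1 sums and 34.4 and 140.1 CPM in the hairpin 2 sums (log2 fold change 2.37 ± 0.24 SE, edgeR adjusted p = 7.26e-06), and its call was lost with doublets left out. Rsad2 was 0 in both hairpin 1 sums, and its anti-PD1 value was higher in the other 2 lines (log2 fold change 2.06 ± 0.37 SE, edgeR adjusted p = 0.0154). That call held in 3 of 6 fits that leave out 1 library, with values of 0.71 to 2.82, and it was lost without either hairpin 2 library or hairpin 1 IgG. Cxcl9 was higher with anti-PD1 in 2 of 3 lines, and 116 of its 202 UMIs came from 1 barcode (log2 fold change 3.86 ± 0.48 SE, edgeR adjusted p = 0.000122). Hairpin 2 anti-PD1 held 179 of these UMIs, and Cxcl9 could not be fitted without that library. Without hairpin 2 IgG the log2 fold change of Cxcl9 was 2.84 and the call was lost.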

How the data were processed

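Single-cell RNA was measured in 6 libraries of Yumm5.2 mouse melanoma tumours. The deposited files are matrices of raw UMI counts per gene and barcode, made by the authors with Cell Ranger 7.0.1 on mm10, per the submitters' processing notes. The authors' filter that leaves these barcodes is not given in the sources used here.

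The rule on UMIs, genes, mitochondrial share and marker genes given above chose 391 barcodes. Members and gene lists were chosen with earlier results of these data known. Counts were summed per library. The test was the quasi-likelihood one of edgeR 4.0.16, after filterByExpr and TMM scaling, with Benjamini-Hochberg adjustment and a threshold of 0.05. The planned fit used all 391 barcodes with terms for knockdown and treatment, and called nothing. The gene values given are from the 357 marker-rich barcodes (0.1% of UMIs or more) with the tumour line as a term, which was added after the data were seen. Libraries with the same hairpin number came from the same cell line, so the number pairs them as a block. As a check, deviations of the 2 hairpin lines' libraries correlated at 0.234 over 7155 genes. Shares were compared by exact permutation over libraries.

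Sums per library were 189570 to 435478 UMIs, and levels are CPM of these sums. A level of 0 was read against a limit of 3 counts. Scanpy 1.11.5 was used for the clusters (1500 variable genes, 15 components, 15 neighbours, resolution 0.8) and its Scrublet, at an expected rate of 0.06, marked likely doublets, which were kept except in an alternative. Leukocyte barcodes had at least 2 UMIs of Tyrobp and 1 of Ptprc. Tests were run on simulated data first. Genes named are those of the lists, the 12 called genes with the largest change in each direction with at least 20 CPM on average, and the 30 genes with the highest ratio to other barcodes. Promoter windows are from RefSeq (GRCm38.p6) and gene positions from GENCODE M21 on mm10. DESeq2 1.42.0 served as an alternative. Some genes that met the naming rule are not reported here.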

Additional observations from a re-analysis of the deposited data

Results flagged for a closer look

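For 6 of the genes named for one of the comparisons, the control line and both hairpin lines moved in opposite directions between IgG and anti-PD1 in the marker-rich sums. The difference between lines was not tested, since each line and treatment has 1 library, and the levels are low. Values are CPM with anti-PD1 minus CPM with IgG, for the control, hairpin 1 and hairpin 2 lines in turn. Cenpf, which acts at the kinetochore, moved by 16.0, -276 and -72.3 CPM. Clspn, a replication checkpoint protein, moved by 5.35, -87.2 and -28.5 CPM. Ccna2, a cyclin of S phase and mitosis, moved by 10.7, -66.5 and -29.6 CPM, and Ndc80, another kinetochore protein, by 2.675, -50.8 and -17.9 CPM. Sema3a went the other way, by -43.6, 10.6 and 13.9 CPM, as did Slfn4, an interferon-inducible gene, by -18.9, 7.73 and 10.999 CPM. Hairpin 1 IgG, which holds 22 marker-rich barcodes, sets the largest of the 4 falls in dividing-cell genes in each case.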

How the results depend on the processing

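The share of endothelial barcodes kept its direction in both comparisons when the marker minimum was 8, when doublets were left out, with a denominator of barcodes low in tumour-line genes, and for marker-rich barcodes. Leaving out 1 library gave knockdown differences of -0.0207 to 0.156 points, with a change of sign without control IgG (-0.0207) and without hairpin 2 anti-PD1 (-0.00149), and anti-PD1 differences of 0.0560 to 0.258 points.

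With all 391 barcodes, no filter on low counts gave 47 calls for knockdown, 47 for anti-PD1 and 1 between hairpins. Between hairpins DESeq2 gave 6, leaving out 1 library 0 to 699 and the marker-rich barcodes 122. The replicate block on all 391 gave 0 calls for knockdown and 0 for anti-PD1.

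In marker-rich sums the calls depended on the line term: with no replicate block there were 0 for knockdown and 0 for anti-PD1. With barcodes thinned to 4000 UMIs knockdown gave 72 calls, and 41 of them were among the 82 of the main fit. Knockdown gave 9 calls with DESeq2, 141 with no filter, 42 at a marker share of 0.2% or more and 5 to 116 over leave-outs. Anti-PD1 gave 1 with DESeq2, 23 with no filter, 4 without doublets, 3 at 0.2%, 1 with barcodes thinned to 4000 UMIs and 3 to 25 over leave-outs. Between hairpins there were 72 calls with the 4 knockdown libraries alone, 17 with DESeq2, 209 with no filter, 55 at 0.2%, 47 after thinning and 10 to 145 over leave-outs. A line left with 1 library adds no spread of its own and is assumed to vary like the others.

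Of 1401 values of named genes under these alternatives, 789 kept direction and call, 609 kept direction only and 3 changed sign. S100a4 for knockdown went to 0.0698 without doublets and 0.15 with all 391 barcodes, and Inhba between hairpins to 0.41 with all 391. The causes were not tested. Alternatives other than those planned, among them every marker-rich one, were chosen after seeing the data. With 22 to 84 marker-rich barcodes per library, genes under a few CPM could not be compared.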
